A study of Mus musculus with 12 samples.

Results

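The carriers that move bile acids and organic anions across hepatocyte membranes were followed across 4 groups of arrays: the 10 bile acid and organic anion transporters Slc10a1, Slco1a1, Slco1a4, Slco1b2, Abcb11, Abcb4, Abcc2, Abcc3, Abcc4 and Slc51b, of 19938 genes measured. They were chosen by symbol as the carriers that hepatocytes use for uptake and efflux, and each was represented by 1 probe set annotated to that symbol alone. Slco1a4 message rose 4.39-fold (95% interval 2.70 to 7.12) with a progeria knock-in on the control diet. In wild-type livers, methionine restriction raised Slco1a4 3.79-fold (2.33 to 6.15) and Abcc4 2.80-fold (2.03 to 3.88). Over 22 alternative ways of fitting the data, these calls held in 8, 13 and 17, in that order.

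Liver RNA was measured on 12 Affymetrix Mouse Gene ST arrays, 3 for each combination of genotype and diet. KI_MR stands for Lmna G609G/G609G knock-in mice on a methionine-restricted diet, KI_CD for the same genotype on the control diet, WT_MR for wild-type mice on the restricted diet and WT_CD for wild-type mice on the control diet. All mice were C57BL/6N males, killed at 110 days after 6 hours without food, with the diets begun at 7 weeks. All 4 groups received their food as a mix of solid and crushed pellets, and both genotypes came from crosses of heterozygous parents. The knock-in is a germline point mutation that alters splicing of the lamin A message, is present in every tissue and is used as a model of Hutchinson-Gilford progeria. Mice were housed apart by genotype, so genotype and cage cannot be told apart. Whether the arrays of a group stand for separate animals is not stated, so every p measures the spread between these arrays.

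Bile acids circulate between gut and liver. Hepatocytes take them up from blood across the sinusoidal membrane, through the sodium-coupled carrier encoded by Slc10a1 (NTCP) and the organic anion polypeptides of the Slco family, and pump them into bile across the canalicular membrane through Abcb11 (BSEP) and Abcc2 (MRP2). Carriers of the basolateral membrane (Abcc3, Abcc4 and the Slc51a with Slc51b pair) return bile acids and conjugates to blood and are known to be induced in cholestasis. The nuclear receptor FXR is known to induce Abcb11 and Slc51b, the oxidative stress factor NRF2 to induce Abcc3 and Abcc4, and growth hormone signalling through STAT5 sets sex-dependent levels of Slco1a1, which is higher in males.

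Start-site windows of the carriers are shown here because the 2 adjacent genes Slco1a4 and Slco1a1 had opposite diet differences, because Abcc4 had the best supported diet difference among efflux carriers, and because Abcb11 and Slc51b are known FXR targets. Each window holds 250 bases before and 50 after an annotated start, 5′ to 3′ on the gene's strand, from RefSeq (GRCm38.p6). Of the 10 genes, 9 had a window in that table, 11 windows in all. Capitals mark matches, on either strand, to 4 motifs: the antioxidant response element core TGACNNNGC bound by NRF2, the STAT5 site TTCNNNGAA, the FXR element, an inverted repeat of AGGNCA with 1 base between its arms, and the HNF1 site. Of all 32851 windows, 12.4% held the antioxidant core, 8.3% the STAT5 site, 0.0883% the inverted repeat and 0.399% the HNF1 site. No 2 matches overlapped in the windows printed.
Slco1a4, chr6:141856171-141856470, minus strand: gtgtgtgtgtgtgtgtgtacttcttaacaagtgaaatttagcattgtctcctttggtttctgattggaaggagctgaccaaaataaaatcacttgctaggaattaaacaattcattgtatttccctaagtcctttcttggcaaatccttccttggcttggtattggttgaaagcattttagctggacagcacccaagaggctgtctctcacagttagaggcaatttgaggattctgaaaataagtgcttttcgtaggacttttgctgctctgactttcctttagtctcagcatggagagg
Slco1a1, chr6:141946913-141947212, minus strand: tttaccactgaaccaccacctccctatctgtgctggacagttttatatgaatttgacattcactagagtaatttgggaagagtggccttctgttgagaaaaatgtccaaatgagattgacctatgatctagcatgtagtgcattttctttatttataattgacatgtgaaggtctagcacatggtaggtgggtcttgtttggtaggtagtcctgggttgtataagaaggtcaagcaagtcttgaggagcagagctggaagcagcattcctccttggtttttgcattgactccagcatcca
Abcc4, first start, chr14:118706170-118706469, minus strand: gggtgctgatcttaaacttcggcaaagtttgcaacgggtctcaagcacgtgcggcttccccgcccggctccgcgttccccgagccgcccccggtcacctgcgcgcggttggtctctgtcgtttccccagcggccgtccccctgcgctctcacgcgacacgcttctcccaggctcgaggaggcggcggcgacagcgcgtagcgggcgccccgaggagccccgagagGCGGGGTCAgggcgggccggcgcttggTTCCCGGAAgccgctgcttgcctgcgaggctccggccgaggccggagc
Abcc4, second start, chr14:118676882-118677181, minus strand: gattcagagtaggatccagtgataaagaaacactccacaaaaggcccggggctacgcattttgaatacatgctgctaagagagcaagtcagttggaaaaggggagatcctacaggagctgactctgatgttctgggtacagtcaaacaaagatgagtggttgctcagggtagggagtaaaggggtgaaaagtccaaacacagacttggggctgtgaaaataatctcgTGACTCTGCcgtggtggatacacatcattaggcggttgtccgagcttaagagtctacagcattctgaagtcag
Slc51b, chr9:65422724-65423023, minus strand: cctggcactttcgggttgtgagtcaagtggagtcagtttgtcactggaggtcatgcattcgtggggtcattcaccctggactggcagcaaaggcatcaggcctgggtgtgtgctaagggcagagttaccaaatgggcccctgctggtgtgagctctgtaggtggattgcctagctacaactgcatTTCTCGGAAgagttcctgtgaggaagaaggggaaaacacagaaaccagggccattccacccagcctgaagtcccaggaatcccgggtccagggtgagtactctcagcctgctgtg
Abcb11, chr2:69342567-69342866, minus strand: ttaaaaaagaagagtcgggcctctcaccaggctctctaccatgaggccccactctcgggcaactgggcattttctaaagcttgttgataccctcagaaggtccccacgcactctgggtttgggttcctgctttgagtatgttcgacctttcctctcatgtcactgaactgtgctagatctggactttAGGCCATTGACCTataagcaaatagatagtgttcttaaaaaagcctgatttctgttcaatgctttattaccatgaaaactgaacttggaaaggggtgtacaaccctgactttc

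The windows of Slco1a4 and Slco1a1 held no match to any of the 4 motifs. Both Abcc4 windows held the antioxidant core, in the first as GCGGGGTCA on the opposite strand, from base 226 to base 234, and in the second as TGACTCTGC, from base 228 to base 236. The first Abcc4 window further held the STAT5 match TTCCCGGAA, and the Slc51b window held TTCTCGGAA. The Abcb11 window held the inverted repeat as AGGCCATTGACCT, from base 188 to base 200, and Slco1b2, also on chromosome 6, held AGGACAGTGACCT, from base 163 to base 175 of its own window. Of the windows not printed, that of Abcc2 held the antioxidant core TGACATAGC, and those of Slc10a1 and Slco1b2 held the STAT5 matches TTCTCTGAA and TTCTGAGAA. A match describes these letters and does not show that a factor binds.

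The deposited values are linear intensities in array units, and differences below are log2 differences ± SE with adjusted p from 1 limma fit over all genes and all 12 arrays, with a threshold of 0.05. No gene's level is set against another gene's, since probe sets differ in brightness. Array medians lay between 82 and 90. Sums of 5 hepatocyte markers were 60760 to 63631 in KI_MR, 64171 to 65228 in KI_CD, 54119 to 61426 in WT_MR and 58556 to 62656 in WT_CD, with KI_CD above both KI_MR and WT_CD. Markers below the lower quartile of gene values on every array were 3 of 5 for kidney tubule (Umod, Slc12a1 and Kap), 1 of 5 for enterocytes (Sis), 1 of 5 for cholangiocytes (Cftr) and 1 of 5 for lymphocytes (Ms4a1), and 0 for the other cell types. The sum of the 5 enterocyte markers was 982 to 1454 in KI_MR, 1110 to 1980 in KI_CD, 1401 to 1692 in WT_MR and 1676 to 2774 in WT_CD, most of it from Fabp2. The sum of 5 measured cholangiocyte markers was 361, 425 and 766 in KI_MR, 568, 351 and 370 in KI_CD, 365, 383 and 352 in WT_MR, and 402, 419 and 367 in WT_CD, and 0 of the 5 passed in any comparison. Stellate cell sums (6 markers) were 6365 to 7199 in KI_MR, 5760 to 7671 in KI_CD, 4871 to 5469 in WT_MR and 5596 to 6223 in WT_CD, so WT_MR lay below both KI_MR and WT_CD without overlap. Most of each sum came from the marker Dcn, which itself overlapped between WT_MR (2942 to 3321) and WT_CD (3305 to 3821). The marker Des was at 1113 in KI_MR replicate 2 and at 117 and 147 in the other KI_MR arrays. Kupffer cell and macrophage sums (6 markers) were 5043 to 5763 in KI_MR, 4723 to 5769 in KI_CD, 4760 to 8379 in WT_MR and 6054 to 7368 in WT_CD, so KI_CD lay below WT_CD. Of all markers of the 8 cell types 1 passed, the stellate marker Dcn, which was higher with the knock-in averaged over diets (0.32, limma adjusted p = 0.0324). The part of these sums in the carriers' values was not tested. In bulk liver, fewer cells of a type and less RNA per cell cannot be told apart. KI_CD replicate 1 was the least like its group, with a mean correlation across genes of 0.986 with its group, against 0.989 to 0.994 for the other arrays.

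**Figure D1:**
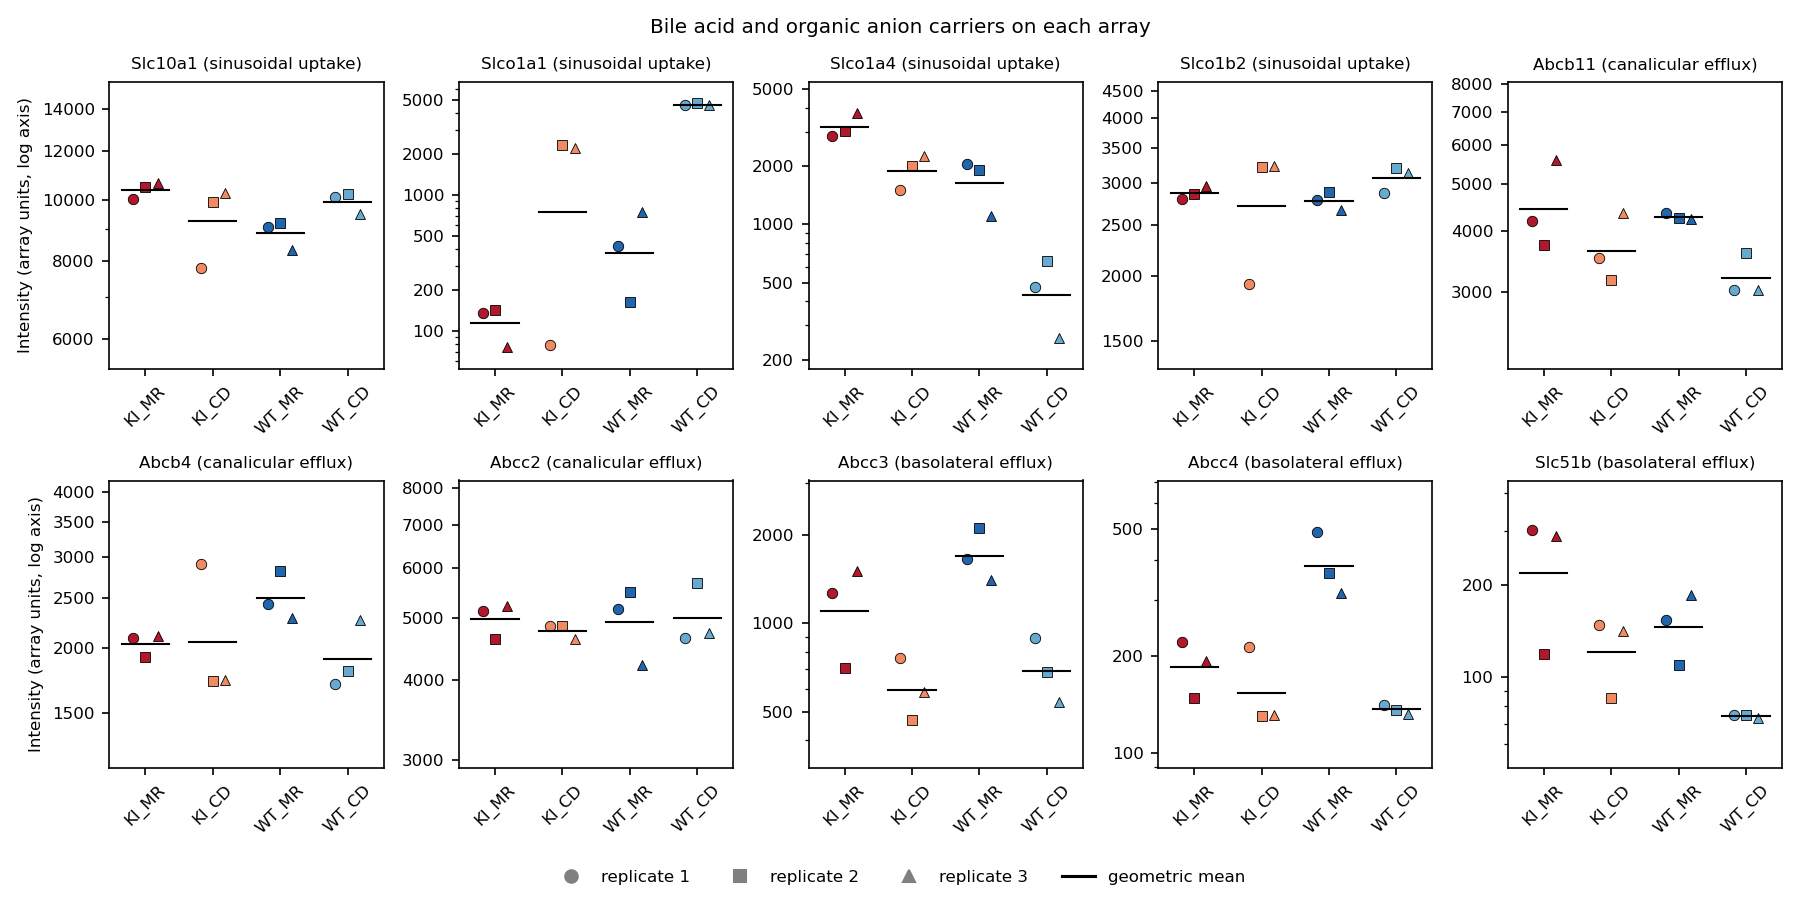
Intensity of each of the 10 carriers on all 12 arrays (log axis, array units), with groups from left to right KI_MR, KI_CD, WT_MR and WT_CD, a symbol for each replicate and a bar at the geometric mean (n = 3 arrays per group). Slco1a4 is lowest in WT_CD (260 to 648), Slco1a1 is highest there (4541 to 4695) with KI_CD replicate 1 at 79, and Abcc4 is highest in WT_MR (315 to 487).

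Among the sinusoidal uptake carriers, Slco1a4 encodes OATP1A4, which takes up bile acids, steroid conjugates and cardiac glycosides. Its intensity was 2851, 3038 and 3763 in KI_MR, 1496, 1995 and 2251 in KI_CD, 2049, 1916 and 1102 in WT_MR, and 472, 648 and 260 in WT_CD. Every array of the other 3 groups lay above every WT_CD array, and KI_MR lay above KI_CD and WT_MR with no overlap. The KI_CD and WT_MR arrays overlapped and are neighbours in the order of levels, KI_MR, KI_CD, WT_MR, WT_CD.

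Slco1a4 rose with the knock-in on the control diet by 2.13 ± 0.32, or 4.39-fold (95% interval of the log2 difference 1.43 to 2.83, limma adjusted p = 0.0393). It rose with restriction in wild-type livers by 1.92 ± 0.32, or 3.79-fold (1.22 to 2.62, limma adjusted p = 0.0333). On the restricted diet the knock-in difference was 0.97 ± 0.32 (adjusted p = 0.201), and with restriction in knock-in livers the difference was 0.76 ± 0.32 (adjusted p = 0.585). Neither of these passed, although the groups did not overlap in either. The knock-in call held in 8 of 22 alternatives, 3 of them among the 12 fits that each lacked 1 array, and was lost with quantile normalization (adjusted p = 0.0703), an offset of 16 (0.0597), all probe sets (0.0665), the replicate block (0.0684) and only the compared arrays (0.185). The diet call held in 13 of 22 alternatives and in 6 of those 12 fits, while the differences kept within 1.77 to 2.43 and 1.56 to 2.22 over all 22 alternatives.

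Slco1a1, the neighbour of Slco1a4 on chromosome 6, encodes OATP1A1, a male-predominant uptake carrier of bile acids and sulfated steroids. Its intensity was 135, 142 and 76 in KI_MR, 79, 2338 and 2206 in KI_CD, 421, 163 and 742 in WT_MR, and 4541, 4695 and 4597 in WT_CD. The WT_CD arrays were close to each other and above all 9 others. KI_CD was split, with replicate 1 at the level of KI_MR and the other 2 arrays far above it. Between its dimmest and brightest array the gene spanned 61.8-fold, a wider range than 99.9% of genes.

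The Slco1a1 differences did not pass in the fit of all arrays. They were -2.64 ± 1.06 for KI_CD against WT_CD (limma adjusted p = 0.396), -1.71 ± 1.06 for KI_MR against WT_MR (0.476), -2.71 ± 1.06 for KI_MR against KI_CD (0.524) and -3.64 ± 1.06 for WT_MR against WT_CD (0.255). Without KI_CD replicate 1 the diet differences passed in limma, at -4.32 in knock-in livers (adjusted p = 0.00413) and -3.64 in wild-type livers (adjusted p = 0.00261). In that fit the knock-in difference on the control diet was -1.02 (adjusted p = 0.492). This array was the furthest from its group for Slco1a1, so its removal is not independent of these values. The wild-type difference was the same with and without it. Of 22 alternatives, the diet difference passed in 1 in knock-in livers and in 3 in wild-type livers. KI_CD replicate 1 lay within the range of the KI_MR arrays, so the diet call in knock-in livers rests on leaving that array out.

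In the order of the RefSeq table, protein-coding genes follow each other on chromosome 6 as Slco1c1, Slco1b2, Gm5724, Slco1a4, Slco1a1, Gm6614, Slco1a6 and Slco1a5. Slco1a5, Slco1a6 and Slco1c1 had log2 differences between -0.14 and 0.02 in the 4 comparisons of groups, and none passed; Gm5724 and Gm6614 were not analysed here. Near-identical paralogs can share signal on a probe set, and the extent of this was not tested here.

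Slc10a1 and Slco1b2, the main sodium-coupled and sodium-independent bile acid carriers of the sinusoidal membrane, differed little between groups. Slc10a1 had 10031, 10505 and 10665 in KI_MR, 7814, 9934 and 10270 in KI_CD, 9076, 9194 and 8319 in WT_MR, and 10120, 10225 and 9520 in WT_CD. KI_MR lay above WT_MR and WT_MR below WT_CD without overlap, at 0.23 ± 0.10 (limma adjusted p = 0.313) and -0.17 ± 0.10 (0.767), and no Slc10a1 difference passed. Slco1b2 had 2799, 2857 and 2961 in KI_MR, 1927, 3216 and 3235 in KI_CD, 2792, 2892 and 2663 in WT_MR, and 2881, 3206 and 3143 in WT_CD. All 4 Slco1b2 comparisons overlapped, with differences from -0.18 to 0.08, and the lowest value was again KI_CD replicate 1. The 95% intervals of the 4 comparisons held Slco1b2 within 0.691 to 1.35 times its control.

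Of the canalicular pumps, Abcb11 secretes bile salts, Abcb4 moves phosphatidylcholine into bile and Abcc2 exports conjugated bilirubin and glutathione conjugates. Abcb11 had 4181, 3746 and 5586 in KI_MR, 3511, 3168 and 4349 in KI_CD, 4343, 4245 and 4222 in WT_MR, and 3023, 3596 and 3022 in WT_CD. WT_MR lay above WT_CD on every array, by 0.41 ± 0.15 or 1.33-fold, without passing (limma adjusted p = 0.423). In knock-in livers the groups overlapped, with a difference of 0.28 ± 0.15 (adjusted p = 0.738).

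Abcb4 had 2094, 1922 and 2107 in KI_MR, 2910, 1726 and 1732 in KI_CD, 2431, 2819 and 2284 in WT_MR, and 1701, 1807 and 2263 in WT_CD. WT_MR lay above both KI_MR and WT_CD without overlap, but neither difference passed (-0.29 ± 0.19 for KI_MR against WT_MR, limma adjusted p = 0.480, and 0.39 ± 0.19 for WT_MR against WT_CD, 0.640). Abcc2 had the narrowest range of the 10, 1.35-fold, from 4222 to 5679 over all arrays. Its 4 differences lay between -0.06 and 0.06, with 95% intervals within 0.812 to 1.23-fold and overlapping groups throughout.

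All 3 basolateral efflux carriers lay above WT_CD on every WT_MR array, against 6.35% of all genes. So did Slco1a4, Abcb11 and Abcb4 of the other classes. Of the 3 basolateral carriers, 1, Abcc4, passed in that comparison, against 0.326% of all genes. Abcc4 encodes MRP4, which exports bile acids together with glutathione, cyclic nucleotides and sulfated steroids. It had 222, 148 and 193 in KI_MR, 213, 130 and 131 in KI_CD, 487, 364 and 315 in WT_MR, and 141, 136 and 132 in WT_CD. All 3 WT_MR arrays lay above all 9 others, and the WT_CD arrays were close together.

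Abcc4 rose with restriction in wild-type livers by 1.49 ± 0.21, or 2.80-fold (95% interval 1.02 to 1.96, limma adjusted p = 0.0156). In knock-in livers the diet difference was 0.27 ± 0.21, or 1.20-fold (-0.20 to 0.74, adjusted p = 0.905), with overlap. On the restricted diet KI_MR lay below WT_MR on every array, by -1.05 ± 0.21, and did not pass (limma adjusted p = 0.0632). This difference passed in 3 of 22 alternatives. These were the fits without KI_CD replicate 1 (adjusted p = 0.0210), with the replicate number as a block (0.0299) and with array weights (6.70e-04). Of the 12 fits with an array left out 1 passed, and the adjusted p reached 0.223 over the alternatives. The wild-type diet call held in 17 of 22 alternatives and in 7 of 12 fits with an array left out, with differences from 1.31 to 1.82.

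Abcc3 encodes MRP3, an exporter of glucuronides and bile acids into blood. It had 1272, 703 and 1501 in KI_MR, 761, 468 and 586 in KI_CD, 1653, 2111 and 1399 in WT_MR, and 889, 683 and 542 in WT_CD. Restricted arrays were above control arrays in wild-type livers without overlap, and in knock-in livers 1 KI_MR array, replicate 2, lay below the highest KI_CD array. The diet difference was 0.90 ± 0.29 in knock-in livers (limma adjusted p = 0.379) and 1.30 ± 0.29 in wild-type livers, or 2.46-fold (adjusted p = 0.113), so neither passed on its own.

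Slc51b encodes the beta subunit of the organic solute transporter, which works with the alpha subunit encoded by Slc51a and is present in both hepatocytes and cholangiocytes. It had 302, 119 and 288 in KI_MR, 147, 85 and 141 in KI_CD, 153, 109 and 185 in WT_MR, and 75, 75 and 73 in WT_CD. The WT_CD arrays were the 3 lowest of the 12, and the highest were KI_MR replicates 1 and 3. The differences were 0.70 ± 0.34 for KI_CD against WT_CD (limma adjusted p = 0.460), 0.58 ± 0.34 for KI_MR against WT_MR (0.447), 0.85 ± 0.34 for KI_MR against KI_CD (0.530) and 0.97 ± 0.34 for WT_MR against WT_CD (0.381), and none passed.

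The partner Slc51a stayed between 46 and 61 on all arrays, with differences from -0.23 to 0.06 that did not pass. Its group means of 5.55 to 5.79 (log2) lay close to the lower quartile of gene values (5.49 to 5.67). Values this dim cannot show whether the Slc51a message was stable. The cholangiocyte marker Krt19 reached 412 in KI_MR replicate 3 and 204 in KI_CD replicate 1 and was 70 to 92 elsewhere, and its part in the Slc51b values was not tested.

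**Figure D2:**
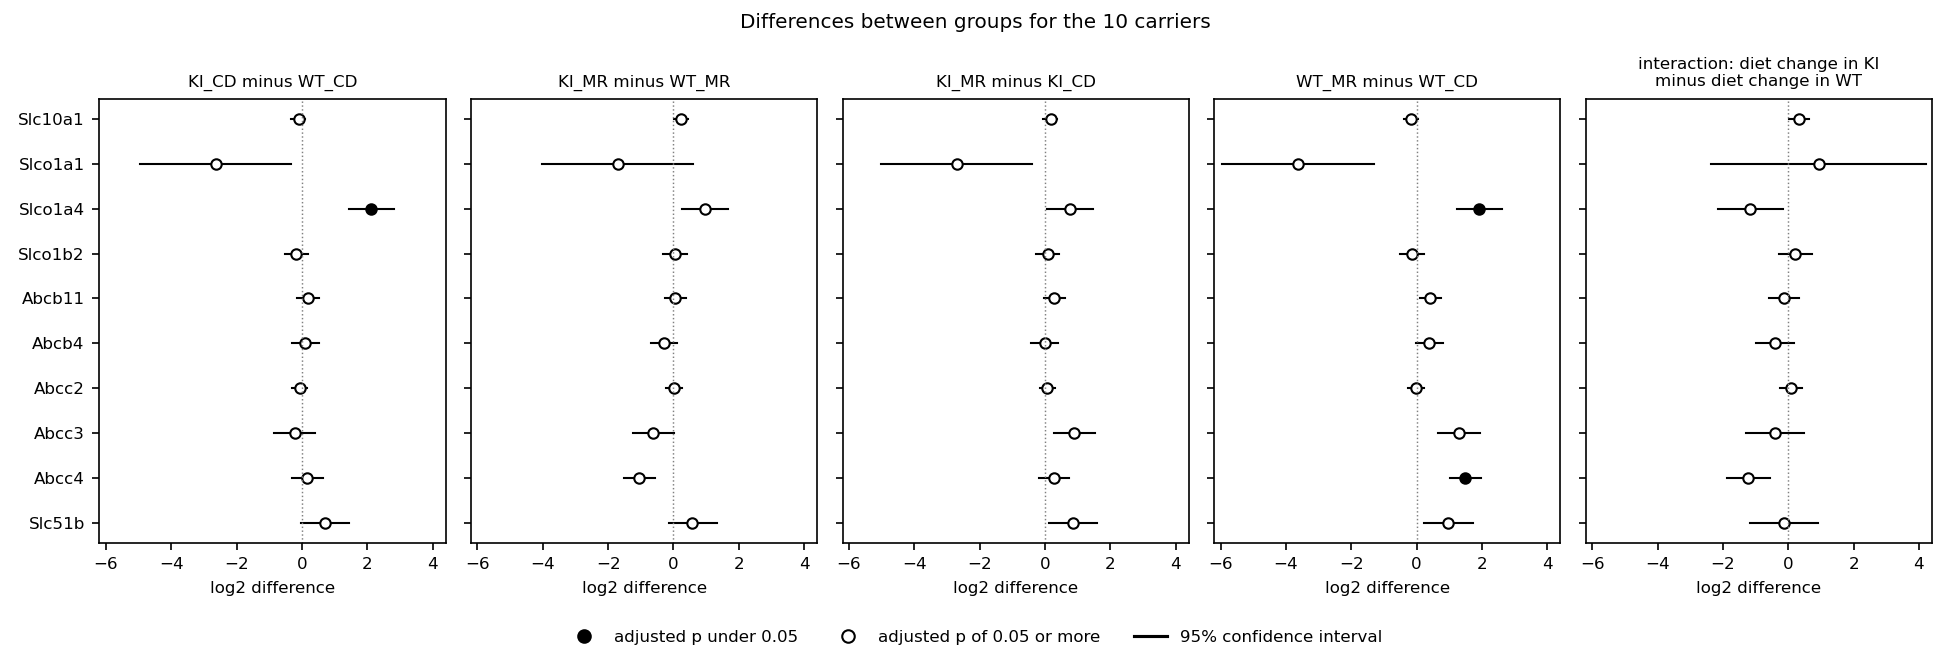
Log2 differences of the 10 carriers in KI_CD minus WT_CD, KI_MR minus WT_MR, KI_MR minus KI_CD, WT_MR minus WT_CD and the interaction, with 95% confidence intervals from the limma fit; filled points have an adjusted p under 0.05. Filled points are Slco1a4 in KI_CD minus WT_CD (2.13) and Slco1a4 (1.92) and Abcc4 (1.49) in WT_MR minus WT_CD, while the intervals of Slco1a1 are the widest.

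Counted over the 10 carriers, 1 passed in KI_CD against WT_CD, where 16 of all 19938 genes did (0.0802%), and 3 did not overlap (Slco1a4 and Slc51b higher, Slco1a1 lower), against 19.0% of all genes. In KI_MR against WT_MR, 0 passed in limma, against 0.471% of all genes, with 3 carriers at an unadjusted p under 0.05 (14.1% of all genes). In that comparison 5 did not overlap (16.3% of all genes), with Slc10a1 and Slco1a4 higher and Slco1a1, Abcb4 and Abcc4 lower. In KI_MR against KI_CD, 0 passed in limma (0.176% of all genes), 4 had an unadjusted p under 0.05 (7.78%) and only Slco1a4 did not overlap (10.7%). In WT_MR against WT_CD, 2 passed, against 0.326% of all genes, and 8 did not overlap, against 11.5% of all genes. Of these 8, the 6 genes Slco1a4, Abcb11, Abcb4, Abcc3, Abcc4 and Slc51b were higher (6.35% of all genes) and the 2 genes Slco1a1 and Slc10a1 lower (5.17%).

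The median difference of the 10 carriers was 0.02 for KI_CD against WT_CD, 0.03 for KI_MR against WT_MR, 0.22 for KI_MR against KI_CD and 0.40 for WT_MR against WT_CD. Over all genes the medians of the same comparisons were -0.02, -0.04, -0.02 and 0.00. The diet comparisons share no array with each other, but each shares its arrays with a knock-in comparison, so the 4 sets of values are not independent.

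Averaged over genotypes, 3 carriers passed with restriction, against 1.21% of all genes, and all 3 were higher, against 0.607% of all genes. Slco1a4 rose by 1.34 ± 0.22 (2.53-fold, limma adjusted p = 0.0171), Abcc3 by 1.10 ± 0.20 (2.14-fold, adjusted p = 0.0271) and Abcc4 by 0.88 ± 0.15 (1.84-fold, adjusted p = 0.0196). Of 12 fits with an array left out, the call held in 9 for Slco1a4, 4 for Abcc3 and 6 for Abcc4, and of all 21 alternatives in 18, 12 and 15. Without KI_MR replicate 3, 0 of the 3 passed in limma (adjusted p 0.0536, 0.0707 and 0.0594). In that fit 6 carriers had an unadjusted p under 0.05, as did 1879 of all 19938 genes. Slco1a1 was at -3.17 ± 0.75 (adjusted p = 0.0747) in this average, and at -3.98 without KI_CD replicate 1 (adjusted p = 1.74e-04). It passed in 3 of 21 alternatives and in 1 of the 12 fits with an array left out. Slc51b had 0.91 ± 0.24 (adjusted p = 0.109) and Abcb11 0.35 ± 0.11 (adjusted p = 0.173), and neither passed.

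Averaged over diets, the knock-in raised Slco1a4 by 1.55 ± 0.22 (2.93-fold, limma adjusted p = 0.00928), the only carrier to pass, against 2.81% of all genes, and this call held in all 21 alternatives. Slc51b was at 0.64 ± 0.24 (adjusted p = 0.157), Abcc4 at -0.44 ± 0.15 (0.137) and Slco1a1 at -2.17 ± 0.75 (0.135) in the same average.

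Whether the diet difference depended on genotype was tested as an interaction, the diet difference in knock-in livers minus that in wild-type livers. By limma 0 of 19938 genes passed, and 824 had an unadjusted p under 0.05 (4.13%), 3 of the carriers among them. Abcc4 had -1.22 ± 0.30 (95% interval -1.88 to -0.56, limma adjusted p = 0.966), Slco1a4 -1.16 ± 0.45 (-2.15 to -0.17, adjusted p = 1) and Slc10a1 0.33 ± 0.14 (0.03 to 0.64, adjusted p = 1). The smaller diet differences of Abcc4 and Slco1a4 in knock-in livers were therefore not called over all genes.

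KI_CD replicate 1 held part of the spread of several carriers. Against the mean of the other 2 KI_CD arrays, it was at -4.85 (log2) for Slco1a1, -0.74 for Slco1b2, -0.50 for Slco1a4 and -0.37 for Slc10a1, all uptake carriers. It was at 0.75 for Abcb4, 0.71 for Abcc4, 0.54 for Abcc3 and 0.43 for Slc51b, and at 0.03 for Abcc2 and -0.08 for Abcb11. No gene of the 19938 deviated further down on this array than Slco1a1. In the same array 12 of 13 male-biased liver genes lay below the other KI_CD arrays (median -1.0) and 13 of 14 NRF2 target genes above them (median 0.87), and the part of either in the carriers' values was not tested.

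**Figure D3:**
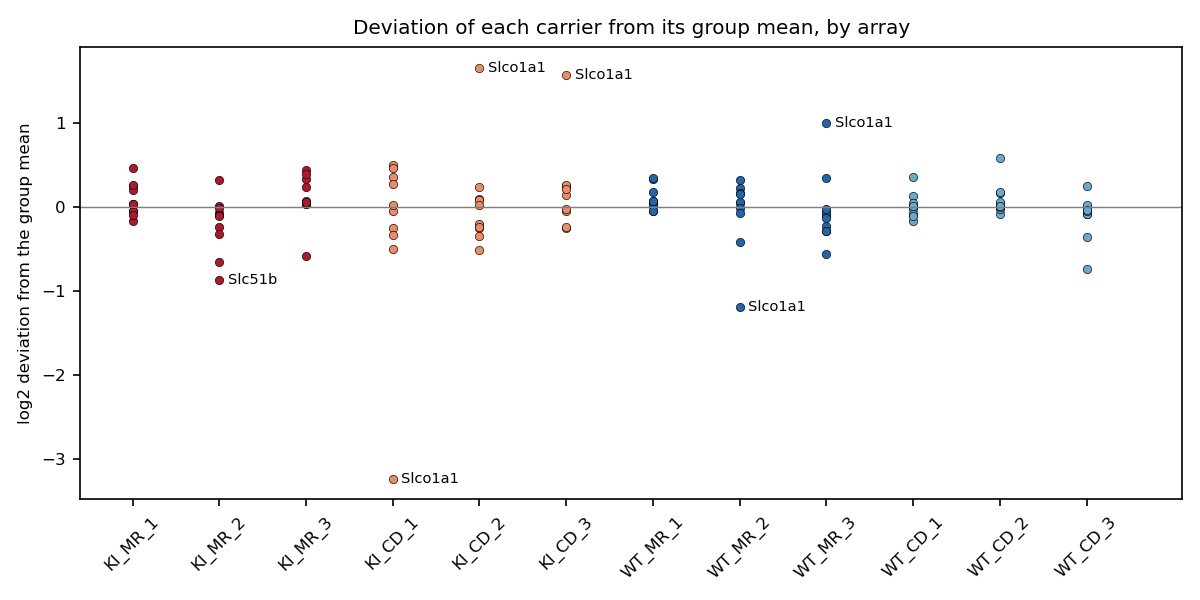
Log2 deviation of each of the 10 carriers from its group mean, by array, with KI_MR, KI_CD, WT_MR and WT_CD from left to right. Slco1a1 in KI_CD replicate 1 lies at -3.23, with the other KI_CD arrays at 1.66 and 1.57, and Slc51b in KI_MR replicate 2 at -0.87.

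Carriers of the liver outside the 10 (28 of 30 listed were measured) are given beside all genes. In KI_MR against KI_CD 1 passed, against 0.176% of all genes. This was Slc22a18, an imprinted organic cation transporter-like gene, which was lower (-0.42 ± 0.06, limma adjusted p = 0.0233). In each of the other 3 comparisons of groups 0 of 28 passed, against 0.0802% to 0.471% of all genes. There 5 to 9 of the 28 had an unadjusted p under 0.05 in limma, against 1633 to 2818 of all 19938 genes. With restriction averaged over genotypes 1 was higher and 1 lower, against 1.21% of all genes. The medians of the 28 in the 4 comparisons of groups lay between -0.05 and 0.00, beside -0.04 to 0.00 for all genes. Slc22a7 encodes OAT2, an uptake carrier of small organic anions. It had 131, 142 and 109 in KI_MR, 280, 648 and 409 in KI_CD, 280, 240 and 380 in WT_MR, and 827, 484 and 948 in WT_CD. It fell by 1.51 ± 0.22 with restriction averaged over genotypes (adjusted p = 0.00865).

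Abcb1a, an efflux pump of drugs (P-glycoprotein), had 349, 199 and 419 in KI_MR, 238, 111 and 180 in KI_CD, 361, 337 and 255 in WT_MR, and 104, 108 and 108 in WT_CD. WT_CD held the lowest values and lay below WT_MR without overlap (1.56 ± 0.29, limma adjusted p = 0.0566), and the diet average passed at 1.22 ± 0.21 (adjusted p = 0.0185). Abcg2, the breast cancer resistance protein of the canalicular membrane, was lower with the knock-in averaged over diets (-0.71 ± 0.14, adjusted p = 0.0275).

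Of 20 genes of bile acid synthesis and conjugation, 0 passed in KI_CD against WT_CD or in KI_MR against KI_CD in limma, where 7 and 6 had an unadjusted p under 0.05. Cyp7a1, the enzyme of the first and rate-limiting step from cholesterol to bile acids, had 1195, 653 and 1745 in KI_MR, 3084, 1876 and 2566 in KI_CD, 5963, 4297 and 3285 in WT_MR, and 1826, 2077 and 2219 in WT_CD. It was lower in KI_MR than in WT_MR (-1.98 ± 0.32, limma adjusted p = 0.0314). In that comparison 6 of the 10 carriers lay above 0, Slco1a4 among them, and 4 below, and 0 of the 10 passed. In WT_MR against WT_CD 1 synthesis gene passed upward, the oxysterol hydroxylase gene Cyp39a1 (1.68 ± 0.27, adjusted p = 0.0297). Another passed downward, the sterol carrier gene Scp2 (-0.70 ± 0.12, adjusted p = 0.0462).

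Of 27 measured regulators (nuclear receptors, liver-enriched factors and growth hormone signalling genes), 1 passed in the 4 comparisons of groups. Cux2, a repressor of male-biased genes in mouse liver, was higher in KI_MR than in WT_MR (0.89 ± 0.15, limma adjusted p = 0.0339) and than in KI_CD (1.20 ± 0.15, adjusted p = 0.0137). The FXR gene Nr1h4 had differences from -0.32 to -0.13 and its target Nr0b2 (SHP) from -0.75 to 0.65 in the 4 comparisons, and neither passed.

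NRF2 target genes (14 of 15 measured) lay above 0 in 14 of 14 for KI_MR against KI_CD and in 13 of 14 for WT_MR against WT_CD, with medians of 0.33 and 0.90. In KI_MR against KI_CD 1 passed, the cystine carrier gene Slc7a11 (2.46 ± 0.37, limma adjusted p = 0.0317). In WT_MR against WT_CD 3 passed: Slc7a11 (2.81 ± 0.37, adjusted p = 0.00935), the quinone reductase gene Nqo1 (2.21 ± 0.27, 0.00686) and the glutathione transferase gene Gsta4 (1.86 ± 0.33, 0.0424). In KI_MR against WT_MR, 13 of the 14 lay below 0 (median -0.28), as did Abcc3 and Abcc4, and 0 of 14 passed, with 2 at an unadjusted p under 0.05. Nqo1 had 210, 124 and 151 in KI_MR, 145, 59 and 98 in KI_CD, 202, 208 and 245 in WT_MR, and 50, 48 and 43 in WT_CD. As with Abcc4, the WT_CD arrays were close together and KI_CD replicate 1 was the highest of its group.

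Slco1a1 is itself known as a male-predominant gene, and a list of male-biased liver genes without it is given beside it. Of 13 male-biased genes, 3 were lower in KI_CD than in WT_CD and 5 in WT_MR than in WT_CD, with medians of -2.08 and -1.95 and all 13 below 0 in both. Hsd3b5, a male-specific steroid dehydrogenase gene, had 79, 54 and 32 in KI_MR, 48, 688 and 766 in KI_CD, 36, 38 and 46 in WT_MR, and 4774, 2926 and 4859 in WT_CD. KI_CD replicate 1 was the outlying array of its group here, as for Slco1a1. It fell by 6.68 ± 0.83 in WT_MR against WT_CD (limma adjusted p = 0.00686).

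Of 10 female-biased genes, 1 was higher in KI_CD than in WT_CD and 1 in WT_MR than in WT_CD, in both cases the cytochrome P450 gene Cyp2b9 (4.59 ± 0.47, limma adjusted p = 0.00653, and 4.89 ± 0.47, adjusted p = 0.00135), which is also among the 13 measured CAR and PXR targets. Cyp2b9 had 10490, 10611 and 12068 in KI_MR, 8057, 5508 and 8043 in KI_CD, 8940, 9527 and 7840 in WT_MR, and 131, 766 and 255 in WT_CD. As for Slco1a4, WT_CD held the lowest arrays and KI_MR the highest. In KI_MR, 2 female-biased genes were higher than in WT_MR and than in KI_CD, Cux2 and the cytochrome P450 gene Cyp2b13 (2.93 ± 0.54, adjusted p = 0.0486, and 4.08 ± 0.54, adjusted p = 0.0193). Of the 10 female-biased genes, 3 lay below 0 in KI_MR against WT_MR (median 0.45) and 1 in KI_MR against KI_CD (median 0.67). In KI_CD against WT_CD 1 lay below 0 (median 0.93), and in WT_MR against WT_CD 0 did (median 1.17). Of the 13 CAR and PXR targets, Cyp2b9 or Cyp2b13 gave the only calls in 3 comparisons. The medians of the 13 were 0.26 in KI_CD against WT_CD and 0.18 in KI_MR against WT_MR, with 9 and 8 above 0. They were 0.18 in KI_MR against KI_CD and 0.44 in WT_MR against WT_CD, with 9 and 10 above 0. In KI_MR against WT_MR, Cyp2b13 and Cyp2c37 (1.12 ± 0.20, adjusted p = 0.0426) were higher and the retinal dehydrogenase gene Aldh1a1 was lower (-1.43 ± 0.12, adjusted p = 9.57e-04). Cyp2b9 and Cyp2b13 are close paralogs that can share signal.

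**Figure D4:**
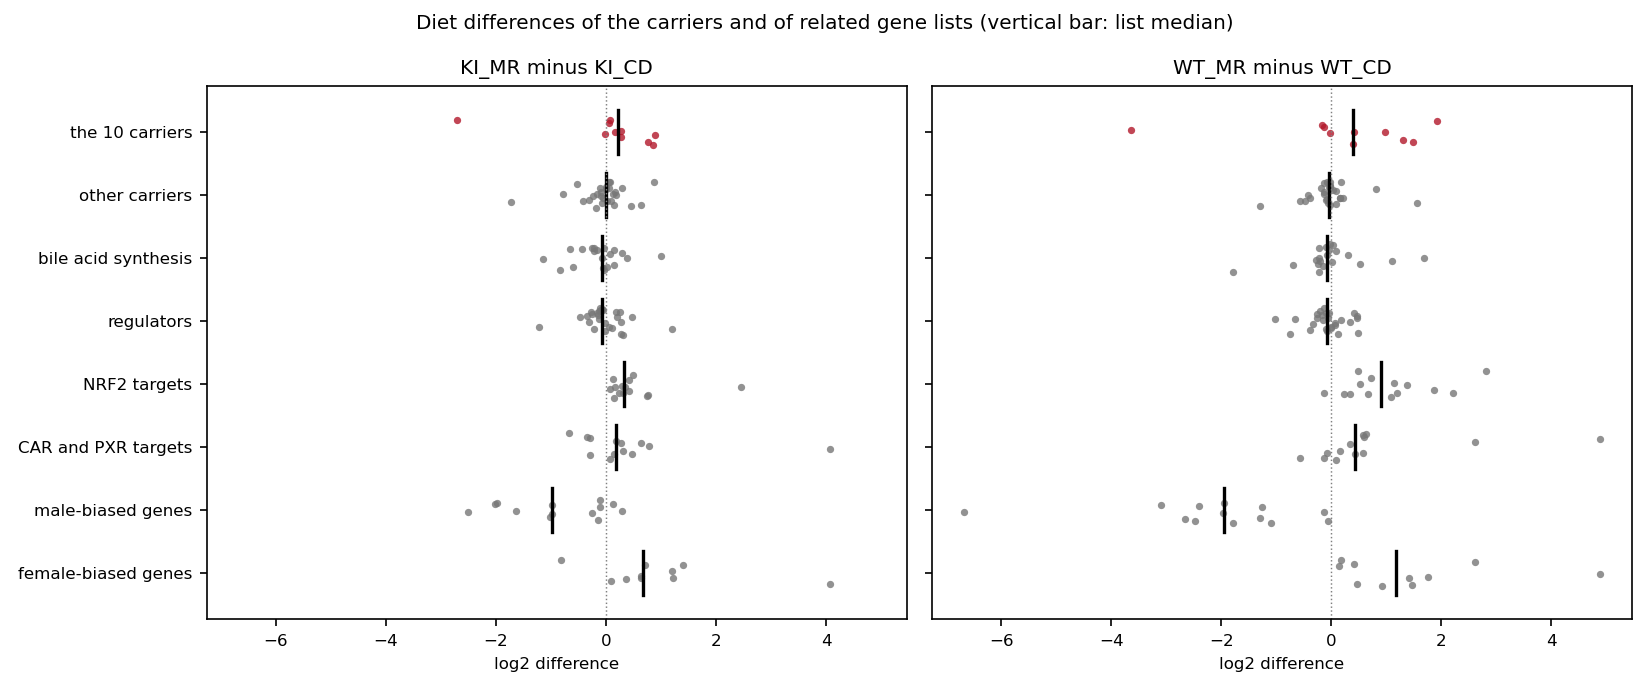
Log2 differences between diets, KI_MR minus KI_CD (left) and WT_MR minus WT_CD (right), for the 10 carriers and for 7 related gene lists, 1 point per gene, with a vertical bar at each list's median. In wild-type livers the NRF2 targets have a median of 0.90 and the male-biased genes one of -1.95, and in knock-in livers 0.33 and -0.98.

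Genes whose levels followed single carriers were sought for the 3 carriers with an unadjusted p under 0.001 in any comparison, among 1293 genes above the median level with an SD of at least 0.3 (log2). Pearson's r over the 12 arrays is given as a description, since the arrays share the 4 groups. Slco1a4 was followed most closely by Rdh16f2 (r = 0.944), the tight-junction gene Ocln (0.942), Cyp2c39 (0.942) and Ildr2 (0.928). Within groups, on deviations from group means, these r were 0.66, 0.59, 0.64 and 0.37.

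Abcc3 was followed by the carboxylesterase gene Ces1g (r = 0.944), the aldehyde oxidase gene Aox1 (0.930), the mitochondrial PEP carboxykinase gene Pck2 (0.917) and the epoxide hydrolase gene Ephx1 (0.908). Abcc4 was followed by the serine protease gene Prss8 (r = 0.949), the UDP-glucose dehydrogenase gene Ugdh (0.939), the lysosomal hexosaminidase gene Hexa (0.929) and the glutathione transferase gene Gstm4 (0.923), and within groups by 0.81, 0.77, 0.81 and 0.78. Ephx1, Ugdh and Gstm4 stand on the NRF2 target list. How many of all candidate genes stand on that list was not counted, and a part of NRF2 in these levels was not tested. Ugdh had 3285, 1708 and 2631 in KI_MR, 2748, 1391 and 1638 in KI_CD, 5166, 4930 and 4938 in WT_MR, and 2087, 2419 and 1419 in WT_CD. As with Abcc4, all WT_MR arrays lay above all others, KI_MR replicate 2 was the lowest of its group and KI_CD replicate 1 the highest of its own. Ugdh was picked for its high r with Abcc4 over these same arrays, so this likeness follows from the choice.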

How the data were processed

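Per the labels' protocols, frozen liver was homogenised in Trizol, RNA was purified on RNeasy columns, and the biotin-labelled product was measured on 12 Affymetrix Mouse Gene ST arrays, 3 for each of 4 groups. The deposited values are linear intensities, whole numbers from 10 to 20042, with array medians of 82 to 90; the background correction, scaling and software are not given in the sources used here. No depth exists for arrays, and the number of arrays limits the precision. Rounding makes small differences of dim genes coarse, and 14% of gene values lay under 32 units. All 10 carriers lay above the lower quartile of gene values of every array (5.49 to 5.67, log2).

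The table held 35512 probe sets, of which 21789 had 1 gene symbol in the probe annotation, 1621 several and 12102 none. The brightest probe set of each gene gave 19938 genes. The log2 of the intensity was taken with no further scaling, and limma 3.58.1 under R 4.3.3 fitted the 4 group means to the 12 arrays together (8 residual and 3.14 prior degrees of freedom). For each of 7 contrasts, two-sided p values were adjusted by Benjamini-Hochberg over the whole set of genes. Exact permutation of 3 against 3 arrays has a smallest two-sided p of 0.1 and was not used. The fit was tested on simulated data. Motifs were searched with pandas 2.3.3 in Python 3.11.15, and plots were drawn with matplotlib 3.10.9 and numpy 2.4.6.

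The members and lists were chosen with earlier results of these data known. The text names all 10 carriers, list genes past the threshold or with up to 3 of the smallest p in KI_CD against WT_CD or KI_MR against KI_CD, and the 4 genes most like each carrier with a p under 0.001. Slco1a5, Slco1a6, Slco1c1, Nr1h4 and Nr0b2 were named outside this rule, with their values known. Alternatives changed the normalization, the filter on dim genes, the offset before the log, the choice of probe sets, the variance prior, the array weights, the arrays in the fit and the replicate block, and left out each array in turn. The labels give no batch or date.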

Additional observations from a re-analysis of the deposited data

Results flagged for a closer look

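Slc10a1 and Slco1b2 stood out because every KI_MR array lay above the KI_CD mean while every WT_MR array lay below the WT_CD mean. For Slc10a1 the diet difference was 0.17 ± 0.10 in knock-in livers and -0.17 ± 0.10 in wild-type livers, an interaction of 0.33 ± 0.14 (limma adjusted p = 1). For Slco1b2 it was 0.08 ± 0.16 in knock-in livers and -0.14 ± 0.16 in wild-type livers, an interaction of 0.22 ± 0.23 (limma adjusted p = 1). In both genes KI_CD replicate 1 was the lowest of the 12 arrays. Without it the diet difference of Slc10a1 in knock-in livers was 0.04 and its interaction 0.21, and the interaction of Slco1b2 was -0.02, so the opposite directions rest on that array for Slco1b2 and largely for Slc10a1. Dixon's test for outlying values was not applied, since each group holds 3 arrays.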

How the results depend on the processing

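Of 1510 values of the carriers under the alternatives, 1388 kept their direction and their side of the threshold, 46 lost a call, 27 gained one and 49 changed direction. With the replicate number as a block, the carriers past the threshold were 0 in KI_CD against WT_CD, 1 in KI_MR against WT_MR and 2 in the genotype average, and the counts over all genes were 177 in KI_MR against WT_MR and 960 in the genotype average. Deviations of same-numbered arrays correlated between -0.06 and 0.24, not all above 0.1, so the numbers were not taken to pair the arrays. The counts of carriers, main value first, moved as follows. KI_CD against WT_CD had 1, and 0 under quantile normalization, an offset of 16, all probe sets or only the compared arrays, and 0 to 1 with an array left out. KI_MR against WT_MR had 0, 3 with array weights, and 0 to 1 with an array left out. KI_MR against KI_CD had 0, and 0 to 1 with an array left out, where KI_CD replicate 1 gave the 1. WT_MR against WT_CD had 2, 1 with the offset or all probe sets, 7 with array weights, and 0 to 3 with an array left out. The genotype average had 1, 4 with array weights, and 1 to 3 with an array left out. The diet average had 3, 5 with array weights, and 0 to 4 with an array left out.

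Over all genes, KI_CD against WT_CD had 16 calls, 31 without the dimmest 25% of genes, 26 with the trend and robust prior, 168 with array weights, 0 with only the compared arrays (2734 at an unadjusted p under 0.05 in limma) and 2 to 32 with an array left out. KI_MR against WT_MR had 94, 58 with median centring, 51 over all probe sets, 4612 with array weights, 15 with only the compared arrays and 3 to 226 with an array left out. KI_MR against KI_CD had 35, 18 with median centring and over all probe sets, 130 with array weights, 0 with only the compared arrays (1472 at an unadjusted p under 0.05 in limma) and 7 to 94 with an array left out. WT_MR against WT_CD had 65, 2204 with array weights, 131 with only the compared arrays and 17 to 199 with an array left out. The interaction had 0, and 0 to 3 with an array left out. The genotype average had 561, 368 over all probe sets, 4801 with array weights and 138 to 1945 with an array left out, and the diet average 241, 1369 with array weights and 112 to 470 with an array left out. The causes were not tested.

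Directions changed mostly for small differences, the exception being the interaction of Slco1a1, 0.93 in the fit of all arrays and -0.69 without KI_CD replicate 1. With array weights these were Abcb4 at -0.03 in KI_CD against WT_CD and 0.15 in KI_MR against KI_CD, Abcc2 at -0.04 in KI_MR against WT_MR and 0.01 in WT_MR against WT_CD, Slco1b2 at -0.08 in KI_MR against KI_CD, and the interaction of Slco1a1 at -0.18. With quantile normalization they were Abcb4 at 0.03 in KI_MR against KI_CD, Abcc2 at 0.02 in WT_MR against WT_CD, and the diet averages of Slc10a1 and Slco1b2 at 0.04 and 0.02. With median centring they were Abcb4 at 0.01 in KI_MR against KI_CD, Abcc2 at 0.00 in WT_MR against WT_CD and in the genotype average, and Slc10a1 at 0.02 in the diet average. With an array left out, ranges that crossed 0 in KI_CD against WT_CD were -0.14 to 0.23 for Abcb4, -0.18 to 0.02 for Slc10a1, -0.30 to 0.07 for Slco1b2, -0.06 to 0.29 for Abcc4 and -0.12 to 0.03 for Abcc2. In KI_MR against WT_MR they were -0.09 to 0.10 for Abcc2 and -0.11 to 0.18 for Abcb11, in KI_MR against KI_CD -0.14 to 0.24 for Abcb4 and -0.17 to 0.21 for Slco1b2, and in WT_MR against WT_CD -0.10 to 0.09 for Abcc2. The interaction ran from -0.69 to 1.76 for Slco1a1, -0.02 to 0.35 for Slco1b2, -0.37 to 0.32 for Slc51b and -0.03 to 0.16 for Abcc2. The genotype average ran from -0.08 to 0.02 for Abcc2 and -0.13 to 0.06 for Slco1b2, and the diet average from -0.06 to 0.04 for Slc10a1, -0.16 to 0.03 for Slco1b2 and -0.02 to 0.08 for Abcc2.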

Other observations

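Cyp8b1, the sterol 12-alpha-hydroxylase that sets the cholic acid share of bile acids, had 80, 584 and 183 in KI_MR, 293, 457 and 357 in KI_CD, 767, 1338 and 1097 in WT_MR, and 1715, 1646 and 606 in WT_CD. Averaged over diets it was lower with the knock-in (-2.03 ± 0.43, limma adjusted p = 0.0342), and knock-in arrays lay below wild-type arrays on both diets. In the same average Cyp2c70, which makes muricholic acids in mice, was higher (0.65 ± 0.11, adjusted p = 0.0151), as were the canalicular aminophospholipid flippase gene Atp8b1 (0.42 ± 0.10, adjusted p = 0.0482) and the cholesterol exporter gene Abca1 (0.27 ± 0.06, adjusted p = 0.0352). The acyl-CoA thioesterase gene Acot8 was lower (-0.40 ± 0.09, adjusted p = 0.0380).

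Of the regulators, 3 passed in that average, among them Cux2 (0.52 ± 0.10, limma adjusted p = 0.0300). Fgfr4, the hepatic receptor for the intestinal bile acid signal, was higher by 0.34 ± 0.07 (adjusted p = 0.0303), and Ppara, the fatty acid receptor, was lower (-0.37 ± 0.08, adjusted p = 0.0335). Counts over the lists in this average were 2 higher and 2 lower of 28 other carriers, 1 higher and 2 lower of 20 synthesis genes, and 2 higher and 1 lower of 27 regulators. Of all genes, 2.81% passed in it.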
